A study of Mus musculus with 6 samples.

Results

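The cytosolic ribosomal protein genes are the genes for the protein parts of the ribosomes that translate cytoplasmic mRNA. They were taken from the gene table by their symbols: Rpl, Rps or Rplp followed by a number, plus Rpsa, without the Rps6k kinases and without rows named as pseudogenes. The rule found 84 genes among 34144 gene rows. Of these, 31 encode small subunit proteins, 43 encode large subunit proteins and 3 encode the stalk proteins Rplp0, Rplp1 and Rplp2. The other 7 are paralogs, second genes for a ribosomal protein: Rpl10l, Rpl39l, Rpl3l, Rpl22l1, Rps27l, Rpl36al and Rpl7l1. A further paralog, Rps4l, was not analysed here.

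RNA was measured in decapsulated testis of 6 C57Bl/6J mice aged 3 months, 3 wild type and 3 Nsun7-/-. The labels give no allele design for the deletion, and no other allele or treatment for either group. Nsun7 encodes a putative RNA cytosine methyltransferase of the NSUN family. Each library is 1 mouse per the labels, total RNA was depleted of ribosomal and globin RNA, and the authors estimated counts and TPM (a share of all transcripts, corrected for length) per transcript with kallisto.

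A ribosome is built from ribosomal RNA and one copy of most of these proteins, so their genes are transcribed at high and roughly matched rates. Many of their mRNAs begin with a C followed by a run of pyrimidines, the terminal oligopyrimidine tract, through which their translation is tuned to growth signals. Many of the genes also carry small nucleolar RNAs (snoRNAs) in their introns. During male meiosis the X chromosome is silenced, and autosomal copies of X-linked genes, among them the retrogenes Rpl10l and Rpl39l, are known for their expression in germ cells.

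The start sites of several members are shown because the pyrimidine run at the start is the sequence feature for which the family is known. Each line gives the 15 bases before and the 15 bases from the RefSeq start on the coding strand (GRCm38.p6), with the longest run of C and T in capitals.
Rps26: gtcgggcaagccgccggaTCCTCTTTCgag
Rps12: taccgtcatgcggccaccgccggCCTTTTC
Rps27: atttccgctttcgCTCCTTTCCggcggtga
Rps27l: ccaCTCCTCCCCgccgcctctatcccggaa
Rpl39: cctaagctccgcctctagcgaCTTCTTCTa
Rpl39l: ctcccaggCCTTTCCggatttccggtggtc
Rpl10: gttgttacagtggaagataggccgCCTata
Rpl10l: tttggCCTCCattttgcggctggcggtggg
Rpl22l1: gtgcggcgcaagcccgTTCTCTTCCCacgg
The windows are chr10:128626492-128626521 on the minus strand for Rps26, chr10:23787195-23787224 (minus) for Rps12, chr3:90213634-90213663 (minus) for Rps27, chr9:66946071-66946100 (plus) for Rps27l, chrX:37085208-37085237 (minus) for Rpl39 and chr16:10170213-10170242 (plus) for Rpl39l. Those of Rpl10, Rpl10l and Rpl22l1 are chrX:74270801-74270830 (plus), chr12:66284387-66284416 (minus) and chr3:28805493-28805522 (plus). The windows of Rps3, Rplp0, both promoters of Rpl22 and a second promoter of Rps27l are not printed. Their longest runs were from 3 to 5 bases, like those of Rpl10 (3 bases) and Rpl10l (5 bases) above. A run of at least 8 letters that are all C or T, within 20 bases of the start, was present in 40.8% of the 76 RefSeq promoters of 64 members, against 16.0% of all 32851 promoters. The same run on the opposite strand, all A or G, was present in 6.58% of the member promoters and 17.7% of all promoters. These are letters in a window and do not show where transcription began in these testes.

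The libraries held 23480448 to 28558865 estimated counts. The targeted gene Nsun7 was lower in the knockout, at 36.5 ± 0.762 CPM (counts scaled to a common library size; SD, n = 3) in wild type and 20.3 ± 4.19 in knockout, a log2 fold change of -0.84 (edgeR adjusted p = 0.016). Its transcript was thus still counted in all the knockout libraries. Wild-type library 1 and knockout library 3 stood at the 2 ends of the first principal component, which held 35.5% of the variance. The estimated fragment length was 154.2 bases in wild-type library 1 and 167.7 to 178.5 in the others. Rmrp, the RNA of a ribonuclease, took 4.85% of the counts of wild-type library 1, 0.985% of those of knockout library 3 and 1.21 to 2.48% of the rest. Germ cell markers were present in all libraries, with the summed level of 10 pachytene markers at 5606 to 7213 CPM and of 10 round spermatid markers at 1033 to 1093 CPM. In bulk tissue, fewer cells of a type and less RNA per cell cannot be told apart.

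Rps26, a small subunit protein that lines the mRNA exit channel, was the member that passed the gene-level test. Its normalised level was 124.8, 118.9 and 117.5 CPM in the wild-type mice and 65.8, 62.9 and 55.2 CPM in the Nsun7-/- mice. All 3 knockout values lay far below all 3 wild-type values, and the spread within each genotype was narrow. The knockout mean was 50.9% of the wild-type mean, a log2 fold change of -0.97 (SE 0.12, edgeR adjusted p = 0.000657). Across all genes tested, 119 of 21002 passed (percent called 0.567), and 0.333% passed as lower in the knockout. On the log2 TPM scale the log2 fold change was -0.45 and did not pass (limma adjusted p = 0.456 with a pseudocount of 1), while without Rmrp and Ccnb1ip1 in the TPM total it was -0.66 and passed (limma adjusted p = 0.0389).

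The transcripts of Rps26 differed far more than the gene. Rps26-201, the annotated protein-coding transcript of 681 bases, had 2230, 2334 and 2254 estimated counts in the wild-type libraries and 59.4, 62.5 and 117.8 in the knockout libraries. It was the main Rps26 transcript in every wild-type mouse and a small part of the gene in every knockout mouse. Its log2 fold change was -5.03 (SE 0.23, edgeR adjusted p = 0.00367). Of 58773 transcripts tested, 16 passed (percent called 0.0272), and Rps26-201 was the one that passed among the 367 tested transcripts of ribosomal protein genes, with none higher. Leaving out knockout mouse 2, wild-type mouse 2 or wild-type mouse 3 raised its adjusted p to 0.0544, 0.0786 and 0.0545, with log2 fold changes of -4.91, -5.05 and -5.09.

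Rps26-202, annotated as a retained intron transcript of 596 bases, had a fold change of the opposite sign. It had 499, 707 and 779 counts in wild type and 1552, 1591 and 1560 in the knockout. The groups did not overlap, but the difference did not pass (log2 fold change 1.10, SE 0.16, edgeR adjusted p = 0.205). The third transcript, Rps26-203, stayed at 16.0 to 28.9 counts in all 6 libraries. The protein-coding transcript therefore held 81.0%, 76.1% and 73.9% of Rps26 counts in the wild-type mice and 3.65%, 3.73% and 6.9% in the knockout mice. When the gene test was repeated on protein-coding transcripts alone, an analysis added after the data had been seen, the log2 fold change of Rps26 was -5.01 (edgeR adjusted p = 5.87e-08; 0.323% of 16082 genes called).

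The sequences of the 2 main transcripts show which reads can separate them. In the GENCODE M21 sequences, whose lengths match those in the deposited tables, Rps26-201 and Rps26-202 share an unbroken run of 410 bases that begins at base 272 of the former and base 184 of the latter. The windows across the point where they diverge are printed with the shared bases in capitals.
Rps26-201: tcttggctccaagatGACCAAAAAAAGAAG
Rps26-202: ctctttccattctcaGACCAAAAAAAGAAG
The windows cover bases 257 to 286 of Rps26-201 and bases 169 to 198 of Rps26-202. Of the 651 words of 31 bases in Rps26-201, 380 also occur in Rps26-202, and a read that lies wholly within the shared run cannot separate the 2 transcripts. The RefSeq start of Rps26 shown above lies after the first 241 bases of Rps26-201. Other transcripts share words with Rps26-201 as well, among them Med21-202, with 212 words. Med21-202 had 55.8 to 72.9 counts in all libraries, with the genotypes overlapping. Reads that Rps26 shares with its processed copies, such as Rps26-ps1 with 296 words, could not be followed, and their part in these values was not tested.

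**Figure D1:**
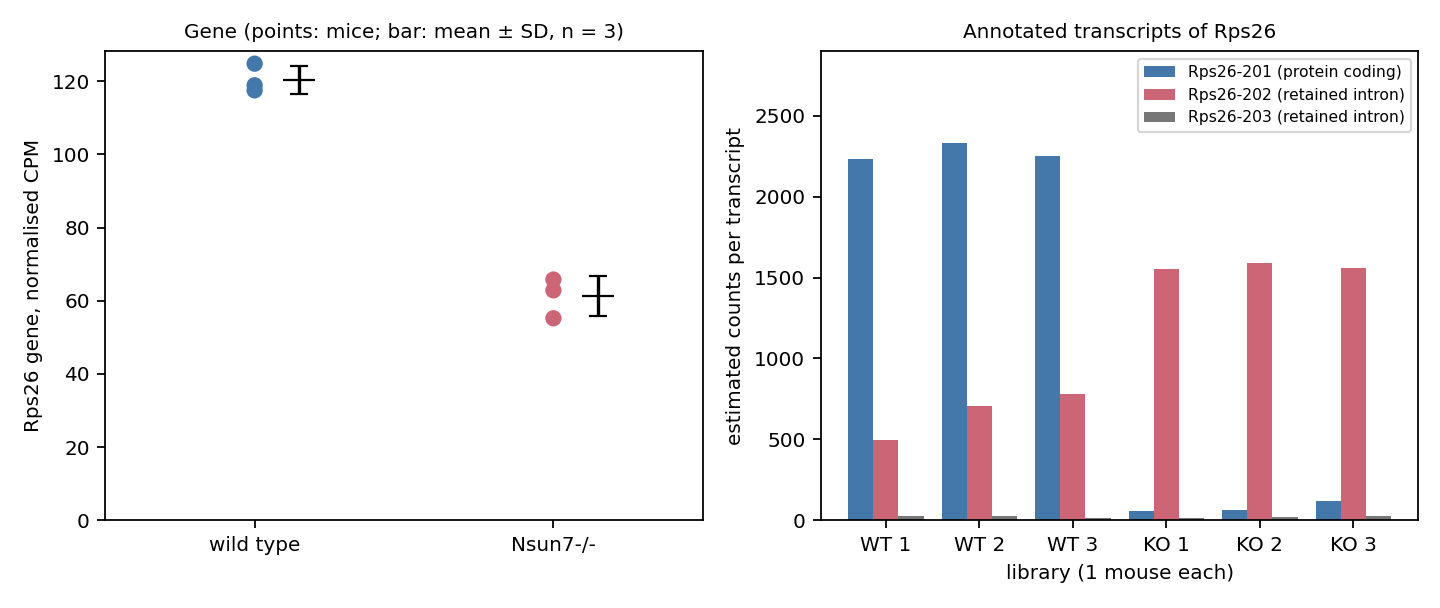
Left, normalised CPM of the Rps26 gene in each mouse (points) with the mean ± SD of 3 mice; right, estimated counts of its 3 annotated transcripts in each library as bars. The gene lies at 117.5 to 124.8 CPM in wild type and 55.2 to 65.8 in Nsun7-/- testis, and the leading transcript is Rps26-201 in wild type and Rps26-202 in the knockout.

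Rps26 lies on chromosome 10, while Nsun7 lies on chromosome 5. Among the 10 tested genes on either side of Rps26 in annotation order, 2 of 20 passed, both lower in the knockout. The melanosome protein gene Pmel had means of 24.4 ± 1.8 CPM (wild-type mice) and 10.5 ± 1.56 CPM (Nsun7-/- mice), and the sulfite oxidase gene Suox had means of 35.3 ± 3.22 and 22.6 ± 1.76 CPM (SD, n = 3; edgeR adjusted p = 0.000781 and 0.0365). The median log2 fold change of the 20 neighbours was -0.05, with a range from -1.21 to 0.30. Rpl41, the shortest ribosomal protein and also among these neighbours, was at 263.6 ± 25.4 and 215.6 ± 49.9 CPM and overlapped between genotypes. Chromosome 10 as a whole held 11 called genes of 963 tested. Over all genes, 119 of 21002 were called (0.567%). Whether the knockout and wild-type mice differ in genomic sequence around Rps26, Pmel and Suox was not tested.

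Rps12, another small subunit protein, had the second smallest p. The wild-type mice had 150.0, 106.4 and 91.5 CPM, and the Nsun7-/- mice had 82.5, 69.3 and 60.8 CPM. The groups did not overlap, but the lowest wild-type mouse and the highest knockout mouse were close. The log2 fold change of Rps12 was -0.71 (SE 0.18), which did not pass with edgeR (adjusted p = 0.14) and passed with DESeq2 (adjusted p = 0.0125; 0.829% of 24478 genes called) and with edgeR once knockout mouse 1 was left out (adjusted p = 0.0415). It was -0.49 without wild-type mouse 1 (edgeR adjusted p = 0.65), -0.62 without knockout mouse 3 (0.639) and -0.38 without both (0.403). Most of its counts came from the protein-coding transcript Rps12-203, at 2764, 2087 and 1835 counts in wild type and 1544, 1376 and 1368 in the knockout. A transcript annotated for nonsense-mediated decay, Rps12-204, was listed at 0 in all wild-type libraries and at 16.9, 22.3 and 10.7 counts in the knockout libraries, and did not pass (edgeR adjusted p = 0.48).

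Rps3, which sits at the mRNA entry of the small subunit, had a fold change almost as large as that of Rps26 but a wide spread. The wild-type mice had 525.1, 234.6 and 186.2 CPM of the gene, and the Nsun7-/- mice had 201.5, 162.8 and 121.0 CPM. Wild-type library 1 stood far above the rest and the groups overlapped (log2 fold change -0.96, SE 0.47, edgeR adjusted p = 0.643). Without that library the log2 fold change was -0.39 (edgeR adjusted p = 0.985). Most of these counts belonged to Rps3-204, a retained intron transcript of 3183 bases that contains the snoRNA Snord15b. Rps3-204 had 10500, 4410 and 3236 counts in wild type and 3107, 2540 and 2150 in the knockout. The protein-coding transcripts of Rps3 held 1038, 1469 and 1365 counts in wild type and 1502, 1531 and 1267 in the knockout. On those alone the log2 fold change was 0.02 (edgeR adjusted p = 0.974), with overlapping groups.

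The same layout, a transcript with an annotated snoRNA inside an exon, occurred in 30 transcripts of 22 ribosomal protein genes. Together they held 6.84%, 3.5% and 2.77% of all ribosomal protein counts in wild type and 2.7%, 2.2% and 2.43% in the knockout libraries. Without Rps3 the shares were 2.71%, 1.74% and 1.48% in wild type and 1.42%, 1.21% and 1.54% in the knockout. The groups overlapped in the second set of shares, and wild-type library 1 was the highest in both. Rplp2-205, which contains Snora52, was also highest in wild-type library 1, with 761, 342 and 223 counts in wild type and 196, 172 and 184 in the knockout. Rpl32-202, which contains Snora7a, had 523, 243 and 151 counts in wild type and 206, 124 and 134 in the knockout, again with its highest value there. Rps2-204, which contains Snora64, did not have its highest value there, with 163, 194 and 128 counts in wild type and 182, 156 and 178 in the knockout. No transcript of this kind passed the test. The share of these transcripts was highest in the library with the shortest fragments and the largest Rmrp share, and the part of either in it was not tested.

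**Figure D2:**
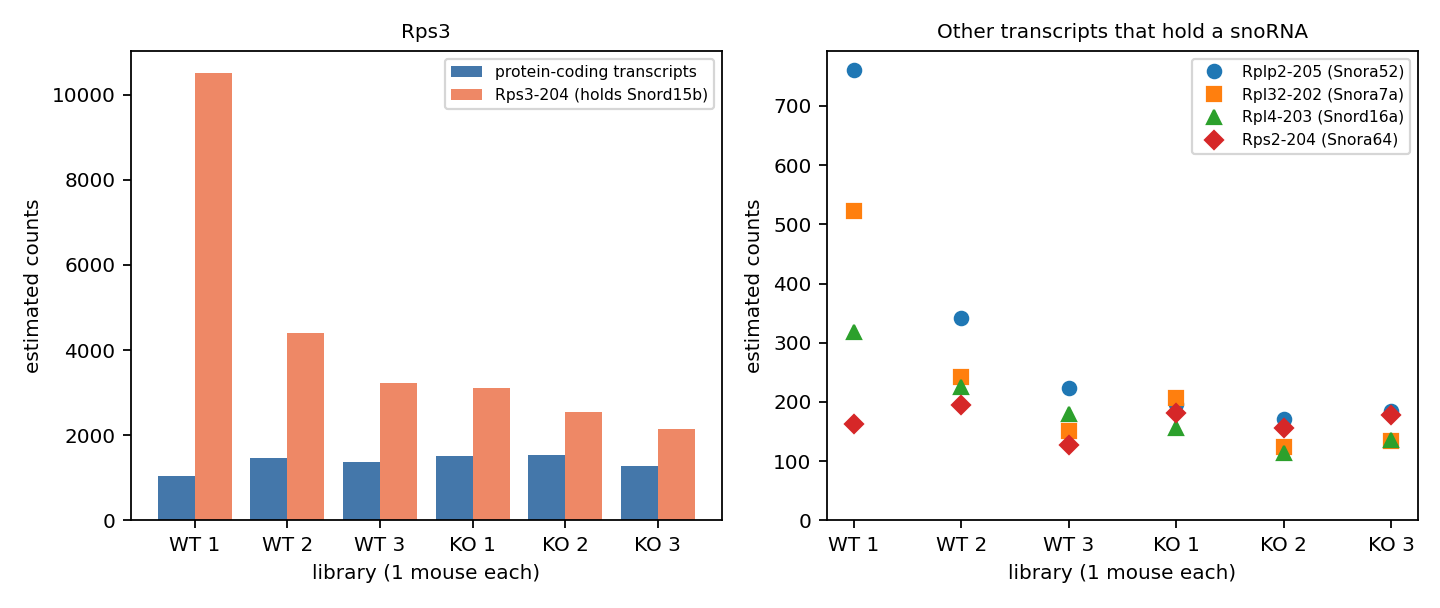
Left, estimated counts of Rps3 in each library, split into protein-coding transcripts and the snoRNA-containing Rps3-204; right, estimated counts of 4 other snoRNA-containing transcripts. Rps3-204 ranges from 10500 counts in wild-type library 1 to 2150 in knockout library 3 while the coding counts stay between 1038 and 1531, and Rps2-204 lies between 128 and 194 counts in all libraries.

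Beyond Rps26, the ribosomal protein mRNAs as a group had a median slightly below 0 on the count scale and above 0 on the log2 TPM scale, with 83 of 84 not passing the test. The log2 fold change was below 0 for 69 of 84 members (82.1%), against 47.5% of all genes tested. The median was -0.19 for the members and 0.02 for all genes, with a range from -0.97 for Rps26 to 0.35 for Rplp0. An unadjusted p below 0.05 was reached by 14 members (16.7%), all lower, against 8.39% of all genes (3.92% lower). In CPM the genotypes did not overlap in 10 members (11.9%), each lower in the knockout. Among all genes, 6.95% were lower without overlap and 14.3% did not overlap in either direction. Besides Rps26 and Rps12 these were Rps7, Rpl19, Rpl3, Rps25, Rps15, Rpl29, Rpsa and Rpl6. In TPM the genotypes overlapped in each gene from Rps7 to Rpl6 of this list, and not in Rps26 or Rps12. On the log2 TPM scale the member median was above 0, at 0.15, but the median of all genes was 0.21, so that the difference between them was -0.07.

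The size of the shift depended on 2 libraries. After each gene was centred on its mean over the 6 libraries, the member median was 0.22, 0.05 and 0.04 in the wild-type libraries and 0.01, -0.02 and -0.28 in the knockout libraries, in log2 CPM. Wild-type library 1 was thus high, knockout library 3 was low, and the other 4 were close together. Wild-type library 1 gave the highest value of 50 members (59.5%; all genes 20.1%), and knockout library 3 gave the lowest value of 59 (70.2%; all genes 28.7%). Without these 2 libraries the median was -0.04, against 0.00 for all genes, 56 members were below 0, and Rps26 was still called, with a log2 fold change of -0.88 (edgeR adjusted p = 0.00175). Without wild-type library 1 alone the median was -0.13, and without knockout library 3 alone it was -0.10.

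**Figure D3:**
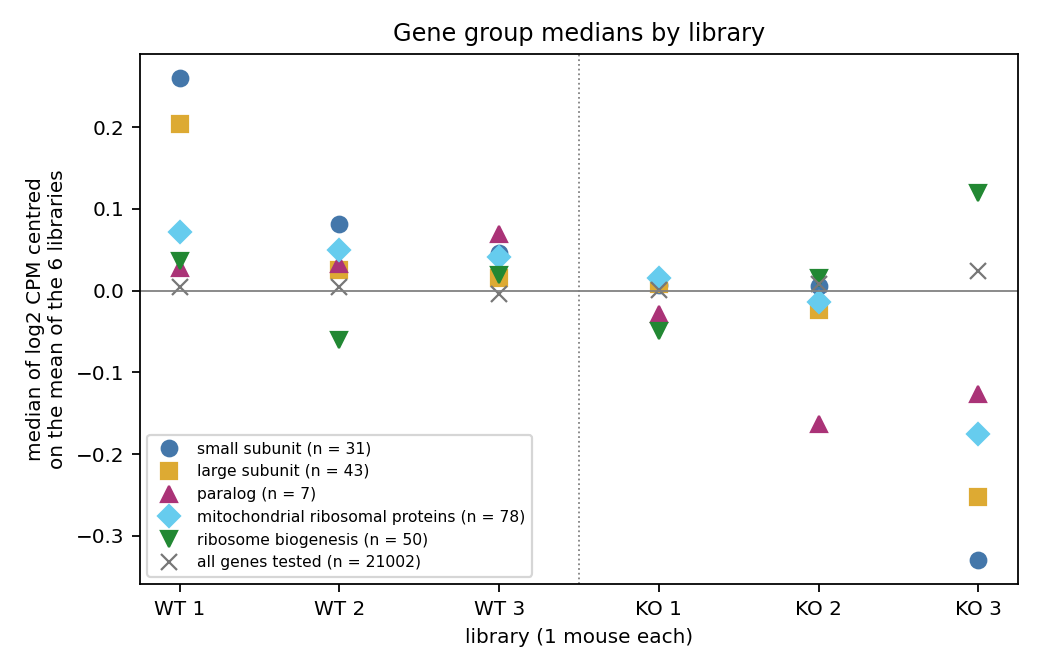
Median over the genes of each group of log2 CPM centred on the mean of the 6 libraries, by library. The small and large subunit medians are highest in wild-type library 1 and lowest in knockout library 3, and the median over all 21002 genes stays between -0.004 and 0.024.

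The small subunit median was -0.22, with 28 of 31 members below 0, and the large subunit median was -0.17, with 33 of 43 below 0. Among the large subunit genes, the 3 with the smallest p were Rpl17, Rpl19 and Rpl3. The wild-type mice had 213.8, 176.4 and 168.0 CPM of Rpl19, and the Nsun7-/- mice had 157.0, 156.7 and 121.4 CPM, for a log2 fold change of -0.36 (edgeR adjusted p = 0.511). Rpl3, which reaches towards the peptidyl transferase centre, stood at 168.9, 159.6 and 156.9 CPM in the wild-type mice against 136.5, 141.0 and 116.5 CPM in the Nsun7-/- mice, for a log2 fold change of -0.30 (edgeR adjusted p = 0.515). In both genes the groups did not overlap in CPM, though the gaps were small. On the log2 TPM scale the values of Rpl19 and Rpl3 were -0.03 and -0.01, and their groups overlapped in TPM. Rpl17 had a log2 fold change of -0.45 (adjusted p = 0.437), Rpl27a one of -0.32 (adjusted p = 0.57) and Rpl32 one of -0.40 (adjusted p = 0.583), all with overlapping groups.

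Among the small subunit genes, Rps7 stood at 121.8, 115.9 and 108.0 CPM in the wild-type mice against 93.6, 97.1 and 76.4 CPM in the Nsun7-/- mice. Every knockout value was below every wild-type value (log2 fold change -0.37, edgeR adjusted p = 0.383). Rps27, a zinc finger protein of the small subunit, had a log2 fold change of -0.45 (adjusted p = 0.462) with overlapping groups. Rps25 and Rps15 had log2 fold changes of -0.32 and -0.33 (adjusted p = 0.532 and 0.578) and did not overlap. On the log2 TPM scale the values of Rps7, Rps25 and Rps15 were -0.05, 0.01 and 0.00.

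The stalk genes encode the flexible arm that recruits elongation factors. Rplp0, its anchor, was the member with the highest fold change, with 698.0, 439.7 and 582.8 CPM in the wild-type mice and 839.7, 784.4 and 564.7 CPM in the Nsun7-/- mice. The groups overlapped, since knockout mouse 3 lay below 2 wild-type mice (log2 fold change 0.35, SE 0.18, edgeR adjusted p = 0.637). The value rested on single libraries: it was 0.18 without wild-type mouse 2 (edgeR adjusted p = 0.933), 0.23 without knockout mouse 1 (0.587) and 0.67 without wild-type mouse 1 and knockout mouse 3 (0.093). Its partners Rplp1 and Rplp2 had log2 fold changes of -0.33 and -0.32 (adjusted p = 0.636 and 0.607). The anchor and its partners thus had opposite signs on the count scale, without a call for any of the 3.

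**Figure D4:**
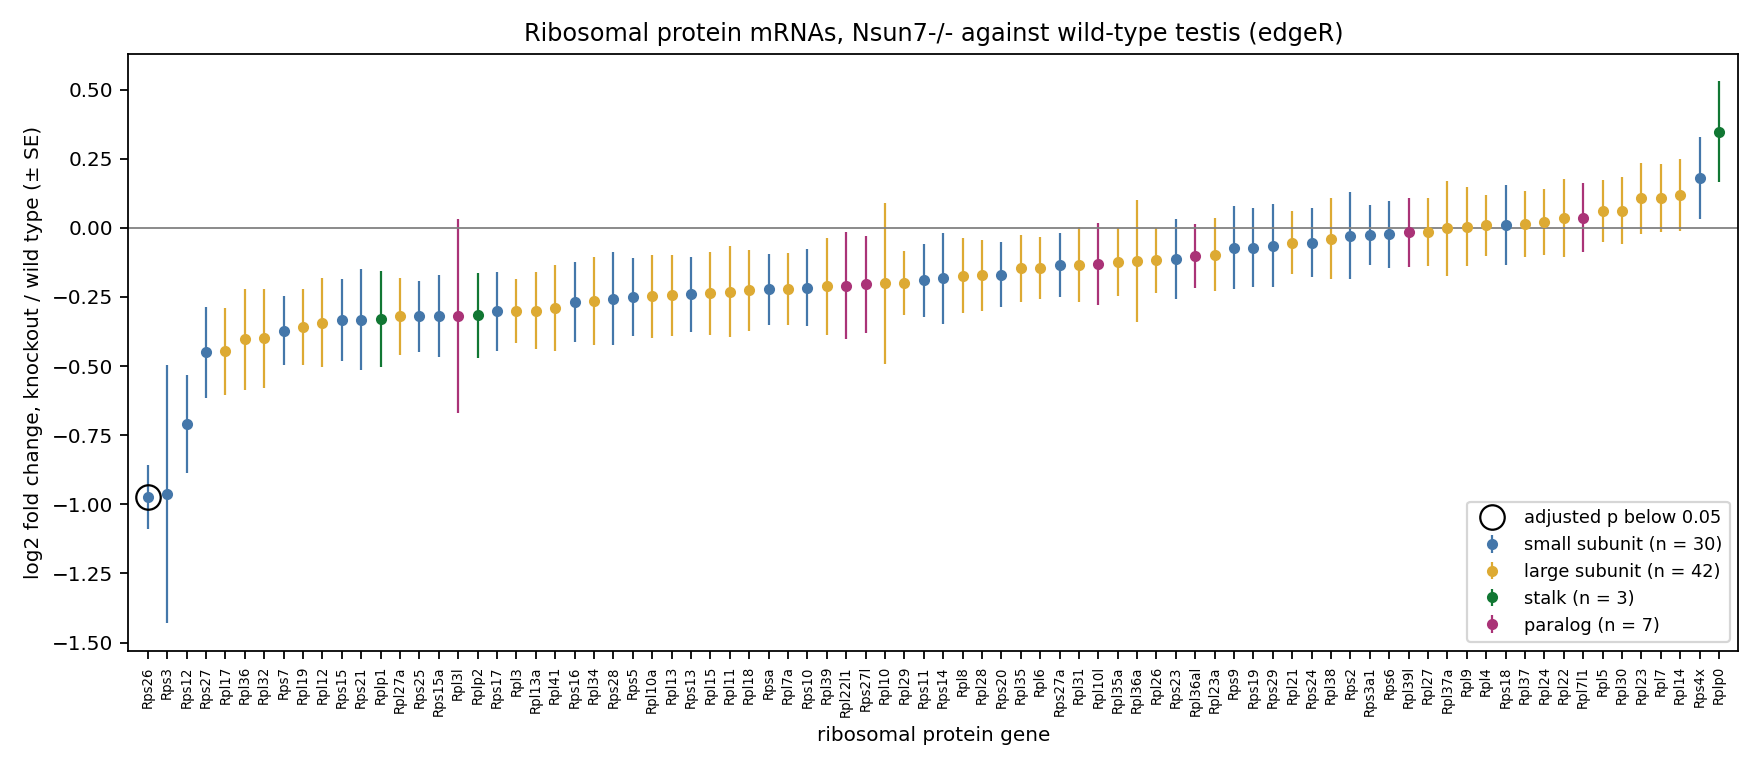
Log2 fold change (knockout over wild type, edgeR on counts) of 82 of the 84 genes in rank order, with standard errors as bars and colours for the class of protein; the circle marks an adjusted p below 0.05. Rps26 is the circled gene at -0.97, and 68 of the genes drawn lie below 0 on this scale, while on the log2 TPM scale 15 of all 84 do.

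Levels differed widely within the family. Per length, in TPM, the highest means over the 6 libraries were 883.4 for Rpl41, 845.0 for Rplp1, 714.3 for Rplp0, 701.7 for Rps28, 696.2 for Rpl13 and 671.1 for Rps27, against a median of 230.0 over the 84 members. The lowest were Rpl3l at 1.58, Rpl22l1 at 8.72, Rpl36a at 9.82 and Rpl39 at 16.7 TPM. The 4 X-linked members, Rpl10, Rps4x, Rpl39 and Rpl36a, held places 76, 78, 81 and 82 of 84 in this order. All 84 passed the filter on low counts. The 3 members with the widest spread of log2 CPM within genotypes were Rps3, Rpl10 and Rpl3l.

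The paralogs of X-linked genes stood far above their X-linked partners in both genotypes. Rpl10l was at 230.0, 253.5 and 237.2 TPM in wild type and 291.9, 247.2 and 288.7 in the knockout, while Rpl10 was at 51.0, 69.3 and 40.9 TPM and 72.4, 55.7 and 44.6 TPM. The ratio of Rpl10l to Rpl10 was 4.66 ± 1.08 in the wild-type mice and 4.98 ± 1.31 in the Nsun7-/- mice (SD, n = 3), with overlapping values. Rpl39l exceeded Rpl39 by 10.8 ± 1.76 and 12.2 ± 1.8 times, and Rpl36al exceeded Rpl36a by 13.5 ± 2.54 and 14.3 ± 2.2 times. Each of these paralogs was above its partner in all 6 libraries. The ratios rest on the kallisto estimates, and the part of reads shared between a paralog and its partner was not tested. Rpl10l and Rpl39l had log2 fold changes of -0.13 and -0.02 between genotypes (edgeR adjusted p = 0.788 and 0.974).

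The other paralogs stood below their partners. Rpl3l, known from heart and skeletal muscle, was at 0.0102 ± 0.00289 of Rpl3 in wild type and 0.0107 ± 0.00636 in the knockout. Rpl22l1 was at 0.326 ± 0.127 and 0.356 ± 0.112 of Rpl22, Rps27l, a target of p53, at 0.0988 ± 0.0137 and 0.116 ± 0.0157 of Rps27, and Rpl7l1 at 0.144 ± 0.0145 and 0.128 ± 0.00947 of Rpl7. The genotypes overlapped in all 7 ratios, with exact two-sided permutation p from 0.2 to 1 and values adjusted over the 7 pairs from 0.7 to 1. With 3 mice against 3 the smallest p such a test allows is 0.1, so these p-values do not show that the ratios were equal. The log2 ratio of Rps27l to Rps27 was higher by 0.22 in the knockout mice, slightly more than its SD of 0.19 in each genotype, and that of Rpl7l1 to Rpl7 differed by -0.18, with SDs of 0.15 and 0.11. At the gene level none of the 7 paralogs passed, and their median log2 fold change was -0.13. Rpl22l1 and Rps27l were below 0 on the count scale, at -0.21 each, and above 0 on the log2 TPM scale, at 0.30 and 0.15.

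**Figure D5:**
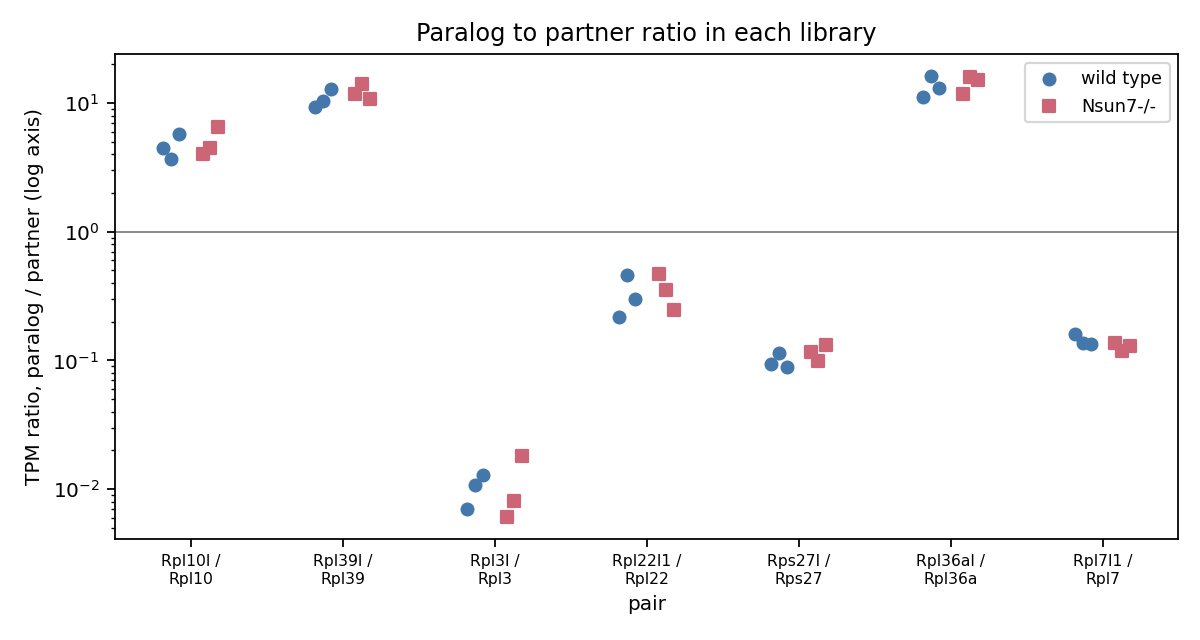
Ratio of the TPM of each paralog to that of its partner in each library, on a log axis, with wild-type mice as circles and Nsun7-/- mice as squares. Rpl10l, Rpl39l and Rpl36al lie above 1 in all 6 libraries, the other 4 lie below 1, and the genotypes overlap in each pair.

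All ribosomal protein genes together made up 1.05%, 0.935% and 0.949% of each wild-type library and 0.946%, 0.937% and 0.821% of each knockout library. The mean share of counts was 0.978 ± 0.0628% for the wild-type mice and 0.901 ± 0.0701% for the Nsun7-/- mice (SD, n = 3), a difference close to the spread, and the genotypes overlapped. Without wild-type library 1 the difference (knockout minus wild type) was -0.0404 in place of -0.0765 percentage points. Of summed TPM they took 2.09 ± 0.259% and 2.29 ± 0.1%, the opposite order, and that difference was 0.0768 without wild-type library 1 in place of 0.195. Rmrp held 33.3% of all TPM in wild-type library 1 and 11.3% in knockout library 3, which enters every TPM value.

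Other genes of the translation apparatus were followed on the same scale, and no gene of these lists was called in either direction. Fau and Rack1, which encode ribosomal subunit proteins but lie outside the symbol rule, had log2 fold changes of -0.18 and -0.24. The 78 mitochondrial ribosomal protein genes had a median of -0.11, with 61 below 0 (78.2%; all genes 47.5%). At an unadjusted p below 0.05 there were 4 of them, all lower, or 5.13%, which is near the 3.92% of all genes that were lower at that p. The smallest p belonged to Mrps26, with means of 35.5 ± 2.86 CPM (wild-type mice) and 27.5 ± 4.37 CPM (Nsun7-/- mice; edgeR adjusted p = 0.498), and the next to Mrpl12 (edgeR adjusted p = 0.532). The 50 ribosome biogenesis genes had a median of 0.01. The 38 initiation factor genes had a median of -0.03, the 13 tested elongation and termination genes one of -0.03 and the 20 genes of terminal oligopyrimidine mRNA control, such as Larp1 and Mtor, one of -0.03. Among the initiation factors the 2 genes of smallest p went in opposite directions. Eif2s3x, a subunit of the factor that delivers the initiator tRNA, was at 10.04 ± 0.143 CPM in the wild-type mice and 12.6 ± 1.51 CPM in the Nsun7-/- mice without overlap, a log2 fold change of 0.33 (edgeR adjusted p = 0.572). Eif4a2, whose introns also carry snoRNAs, had 1028, 430 and 326 CPM in the wild-type mice and 312, 266 and 246 CPM in the Nsun7-/- mice, a log2 fold change of -1.11 (edgeR adjusted p = 0.625). Its groups did not overlap either, but the gap was small and wild-type library 1 stood far above the other libraries.

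Marker genes of the other testis cells and genes with short transcripts moved in part with the same libraries, and their part in the group shift was not tested. The centred median of 10 spermatogonia markers was 0.20 in wild-type library 1 and -0.13 in knockout library 3, against -0.03 to 0.00 in the other 4, and their summed level was 348.1 CPM in the former and 273.5 CPM in the latter, against 306.4 to 328.8 CPM. Of 10 elongating spermatid markers, Prm3, Tnp2 and Tnp1 were lower at an unadjusted p below 0.05 without being called (log2 fold changes -0.53, -0.39 and -0.79; edgeR adjusted p = 0.479, 0.542 and 0.594; Tnp1 was chosen after its values were seen). Over all genes, 3.92% were lower at that p. Of these 10 markers, 6 had a log2 fold change below 0 and 4 above, up to 0.24. The summed level of the 10 was 8205 to 10770 CPM in wild type and 7421 to 10210 CPM in the knockout. Of 10 Sertoli cell markers, 7 were lowest in knockout library 3, where their summed level was 2966 CPM against 3610 to 4408 CPM in the others. Of 9 peritubular myoid markers, 7 were lowest in that library. Their summed level was 926.7, 931.0 and 882.8 CPM in wild type and 861.9, 838.9 and 705.6 CPM in the knockout, without overlap. In 4 of the 9 all knockout values lay below all wild-type values (44.4%; all genes 6.95%), and none of them was called. Of 10 Leydig cell markers, Hsd3b1 and Hsd17b3 were higher in the knockout (edgeR adjusted p = 0.00345 and 0.0182), with summed levels of 1898 to 3044 CPM in wild type and 2318 to 5119 CPM in the knockout. The summed macrophage markers ranged from 201.4 to 263.3 CPM in wild type and from 221.2 to 370.5 CPM in the knockout. Of 5 blood markers, the haemoglobin gene Hba-a1 was at 0, in RNA that had been depleted of globin RNA. Alas2, the blood marker that passed the filter, was at 34.25 to 37.76 CPM in wild type and 33.35 to 39.53 CPM in the knockout. The most abundant transcript was under 1000 bases in 69 of the 84 members, and the 3017 tested genes with such a transcript had a median log2 fold change of -0.06, with wild-type library 1 highest in 28.5% of them.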

How the data were processed

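Testis RNA of 3 wild-type and 3 Nsun7-/- mice was measured. Per the submitters' processing notes, kallisto 0.50.1 and mm39 were used. The authors deposited estimated counts and TPM per transcript and per gene, with transcript lengths. Counts were not stated to keep strand. The members and gene lists were chosen with earlier results of these data known, and so were the named genes: the paralogs and their partners, Rps26 and its transcripts, every called member, the 8 other members of smallest p, the 6 of highest TPM, the 3 of widest spread and, where genes of another list are named, the 2 of smallest p and any called. The lower level of ribosomal protein genes as a group was among those results, so it is not independent evidence here.

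Estimated counts were rounded and tested with edgeR 4.0.16 (quasi-likelihood, TMM scaling, filterByExpr with a minimum count of 10) over all 21002 genes and, separately, 58773 transcripts, with Benjamini-Hochberg adjustment at 0.05. Alternatives used DESeq2 1.42.0, limma 3.58.1 on log2(TPM + 1) and on log2(TPM + 0.1), other scalings and filters, and omitted libraries; fold changes on the TPM scale understate those of low genes. TPM of genes were used as deposited. Depth per library is given above; the biological coefficient of variation was 14.9%. The scripts were tested on simulated data. Paralog ratios were compared by an exact two-sided permutation test. Lengths of all 501 member transcripts matched GENCODE M21 (GRCm38), from which snoRNA overlap, gene order and transcript sequence were taken; the promoter windows are RefSeq's. Coordinates in mm39 were not used. Some genes are counted in the totals but not reported here by name.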

Additional observations from a re-analysis of the deposited data

How the results depend on the processing

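The gene-level call of Rps26 held under 17 of 19 alternatives, with adjusted p up to 0.0389, and was lost on the log2 TPM scale with a pseudocount of 1 or of 0.1 (-0.45, adjusted p = 0.456 and 0.448); the cause was not tested. One member was called, against 2 with DESeq2 (Rps26 and Rps12), 0 and 0 on both log2 TPM scales, 5 with the replicate block (1.58% of all genes) and 1 to 2 when a mouse was left out (2 without knockout mouse 1). Among all genes 119 were called, against 203 with DESeq2, 34 and 34 on the log2 TPM scales, 33 on log2 TPM without Rmrp and Ccnb1ip1, 180 with no filter on low counts, 52 on protein-coding transcripts alone (added after the data had been seen), 331 with the replicate block and 67 to 166 when a mouse was left out. The member median was -0.041 without wild-type library 1 and knockout library 3, 0.151 on log2(TPM + 0.1) and 0.147 on log2(TPM + 1). Minus the median of all genes in the same fit, it was negative in all settings, from -0.253 without knockout mouse 1 to -0.045 without those 2 libraries. The count of called member transcripts was 1, against 0 with the replicate block and 0 to 1 when a mouse was left out.

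The labels do not say whether the replicate numbers pair the mice. In deviations from the genotype means, same-numbered mice correlated at 0.177, -0.005 and 0.199, and differently numbered mice at -0.235 to 0.056. Wild-type mouse 2 correlated best with knockout mouse 1 (0.056). Whether the numbers mark litters or batches was not tested. With the replicate block the called members were Rps26, Rps12, Rps27, Rpl17 and Rps3 (adjusted p = 8.83e-06, 0.000774, 0.0298, 0.0435 and 0.00737), and the adjusted p of Rps26-201 was 0.202 with a log2 fold change of -5.06.

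Signs turned on log2(TPM + 1) and log2(TPM + 0.1), respectively, for Rpl39 (0.14, 0.15), Rpl22l1 (0.30, 0.33), Rps27l (0.15, 0.15), Rps25 (0.01, 0.01), Rps15 (0.00, 0.00), Rpl41 (0.06, 0.06), Rplp1 (0.01, 0.01), Rps28 (0.11, 0.11) and Rpl13 (0.09, 0.09), none called. Rpl22l1 was at 0.12 on log2 TPM without Rmrp and Ccnb1ip1, Rplp1 at 0.00 without those 2 libraries, and Rps3 at 0.02 on protein-coding transcripts. Another 25 sign changes of named genes lay within 1 SE of 0 on the count scale and were called in neither fit. Low transcript counts, as of Rps26-203 and Rps12-204, rest on few reads.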
